A study of Homo sapiens with 402 samples.

Results

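Metallothioneins are small, cysteine-rich proteins that bind zinc, copper and cadmium. Their genes are switched on when the zinc-sensing factor MTF1 binds metal response elements in their promoters, and MT2A can in addition be induced by glucocorticoids. In epithelial cells MT2A and MT1E are usually among the abundant forms, and MT1X and MT1G are known as inducible forms. The genes described here are the 7 symbols MT1A, MT1E, MT1F, MT1G, MT1M, MT1X and MT2A, chosen by name. They were followed in all 402 libraries as counts per 1000000 counts of the library (CPM), always beside the controls of the same plate. The count files of sequencing run 2 listed all 7 among 34718 symbols. Those of run 1, which holds the DDE plate, listed 4 (MT1E, MT1F, MT1X and MT2A) among 15081.

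The cells were MCF10A, an established non-tumorigenic breast epithelial line labelled wild type, used at passage 105 in every group. They were dosed in 384-well plates a day after plating and lysed 48 h later, and the labels give 4 biological replicates per dose. The 21 chemicals were arsenic, cadmium, copper, lead and mercury (plate 3153-AT, water controls), BPA, BPF, BPS, MPB and PPB (plate 3206-AT, DMSO controls), PFDA, PFNA, PFOS and phenanthrene (plate 3240-AT, DMSO controls) with PFOA (the same plate, water controls), DCB_14, DCP_25, PCB153, PCB187 and thiram (plate 3284-AT, DMSO controls), and DDE on a plate of its own. Each was given at 0.025, 0.25, 2.5 and 25 µM. MPB and PPB at 0.025 µM have 3 libraries each, and cadmium at 25 µM has fewer than 4, as given below. The labels do not give the salt or oxidation state of a metal. The 8 controls that carry the barcode of the DDE plate are labelled with plate 3153-AT and water, while DDE is labelled DMSO, so solvent and dose cannot be told apart there. The labels give 1 cell line at 1 passage and do not say whether replicates came from separate cultures, so p-values measure the spread between these wells.

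Library totals, in units of 1000000 counts (M), ranged from 1.43 to 25.8 M on plate 3153-AT, from 4.92 to 18.9 M on 3206-AT, from 4.61 to 17.1 M on 3240-AT, from 2.31 to 22.5 M on 3284-AT and from 3.06 to 8.87 M on the DDE plate. The range of 3284-AT leaves out the cadmium library that carries its barcode. All 8 breast epithelial markers had plate medians above 0, from KRT5 at 981 to 3378 CPM down to TP63 at 1.94 to 11.8 CPM, with KRT14 (7.93 to 353 CPM), EPCAM (9.73 to 50.4 CPM) and CDH1 (5.09 to 61.6 CPM) low on some plates. Of the markers of other cells, PTPRC, CD3E, VWF, CDH5, COL1A2 and PDGFRA had plate medians of 0 CPM wherever they were listed, while DCN (6.29 to 55.4 CPM), COL1A1 (1.70 to 12.8 CPM) and PECAM1 (0.652 to 3.38 CPM) were not at 0. Their part in the results was not tested. On the metal plate, replicates 1-2 and the 8 lower-numbered controls stood apart from replicates 3-4 and the 7 higher-numbered controls. The median total was 20.9 M in the lower-numbered controls and 3.17 M in the higher-numbered ones, while the dosed libraries had 14.05 and 14.01 M. Results at 25 µM are therefore given with this split where it changed a call. The labels of 1 cadmium library at 25 µM carry the thiram plate's barcode (3284-AT). Leaving that library out keeps 2 cadmium libraries at 25 µM, both from replicates 1-2.

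The 7 genes lie in a cluster on chromosome 16 (GENCODE v29, GRCh38), from MT2A at chr16:56608199-56609497 to MT1X at chr16:56682424-56684196. MT1E lies at chr16:56625475-56627112, MT1M at chr16:56632233-56633986, MT1A at chr16:56638666-56640087, MT1F at chr16:56657694-56660698 and MT1G, the member on the minus strand, at chr16:56666731-56668065. Their coding sequences are close copies, which matters for reads that fall in them. The coding sequences of MT2A, the most abundant member, and MT1X, a member that rose with cadmium and arsenic, are shown. Their 14 differing bases are in capitals (186 bases, 92.5% identical).
MT2A: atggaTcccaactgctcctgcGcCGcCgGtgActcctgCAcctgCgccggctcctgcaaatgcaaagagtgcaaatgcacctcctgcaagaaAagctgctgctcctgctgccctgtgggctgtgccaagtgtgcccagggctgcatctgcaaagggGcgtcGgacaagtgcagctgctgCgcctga
MT1X: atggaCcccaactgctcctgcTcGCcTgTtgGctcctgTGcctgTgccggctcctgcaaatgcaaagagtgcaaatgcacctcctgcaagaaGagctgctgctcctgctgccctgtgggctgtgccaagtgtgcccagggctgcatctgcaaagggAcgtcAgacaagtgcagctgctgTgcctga
The 50-base windows of the spliced transcripts were searched in the other members and in MT1B, MT1H, MT1L, MT1JP, MT1DP, MT1CP and MT1IP. Of all windows, 1.58% of MT2A, 3.37% of MT1X and 1.22% of MT1F occurred in another of these genes. That share was 7.1% for MT1E, 9.87% for MT1M and 16.4% for MT1G, so MT1G and MT1M shared most within this list. Other pseudogenes, among them MT2P1 of MT2A, were not searched, so the shares do not rank how exposed the members are to shared reads.

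Promoters are given as sequence only, and the number of matches was not tested against the size of any response. The windows are the 250 bases before the RefSeq transcription start (GRCh38.p14, plus strand, 5′ to 3′), and capitals mark matches to the metal response element core TGCACNC or TGCGCNC on either strand. The table used held MT2A and MT1X among the members, and the MT2A window lies inside the longer GENCODE span of that gene. MT1B, a family gene outside the 7, is added because its reads appeared with thiram and cadmium.
MT2A chr16:56608334-56608583: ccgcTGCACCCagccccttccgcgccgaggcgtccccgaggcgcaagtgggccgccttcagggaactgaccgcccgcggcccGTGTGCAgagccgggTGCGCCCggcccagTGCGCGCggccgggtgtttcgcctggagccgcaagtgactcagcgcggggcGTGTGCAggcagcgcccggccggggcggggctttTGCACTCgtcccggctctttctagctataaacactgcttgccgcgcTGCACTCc
MT1X chr16:56682220-56682469: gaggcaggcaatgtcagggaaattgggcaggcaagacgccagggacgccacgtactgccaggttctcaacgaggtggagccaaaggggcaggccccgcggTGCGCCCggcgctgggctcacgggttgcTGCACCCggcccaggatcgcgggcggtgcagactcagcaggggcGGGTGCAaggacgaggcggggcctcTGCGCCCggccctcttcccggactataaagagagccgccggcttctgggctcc
MT1B chr16:56651636-56651885: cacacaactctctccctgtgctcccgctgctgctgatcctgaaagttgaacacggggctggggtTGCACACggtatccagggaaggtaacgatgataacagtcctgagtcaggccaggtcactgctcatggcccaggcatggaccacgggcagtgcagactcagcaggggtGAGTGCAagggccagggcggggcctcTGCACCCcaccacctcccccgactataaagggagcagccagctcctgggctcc
MT2A holds 7 matches, MT1X 4 and MT1B 3. MT1H, a family gene not shown, holds 8. It had no read with thiram or cadmium at 25 µM, and 10 reads in 1 arsenic library at that dose. Of 35116 promoter windows of this length, 24.8% hold at least 1 match and 0.370% hold 4 or more. The matches are letters in a window and say nothing of what was bound in these cells.

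MT2A and MT1E made up nearly all metallothionein reads of untreated cells, with the other 5 members far below. Levels between genes are compared as CPM per kilobase of merged exons. In the 15 controls of the thiram plate, MT2A averaged 10166 ± 1402 CPM per kilobase (SD, n = 15), MT1E 1485 ± 248, MT1X 60.7 ± 19.5, MT1F 6.71 ± 2.88 and MT1G 0.863 ± 1.34. The order was the same in the 15 controls of the metal plate, where MT2A averaged 5291 ± 2189, MT1E 819 ± 397, MT1X 32.8 ± 21.1, MT1F 5.61 ± 3.93 and MT1G 0.726 ± 0.666 CPM per kilobase (SD, n = 15). The ranges of MT2A, MT1E and MT1X over these 15 libraries did not overlap with one another on either plate, while MT1F and MT1G reached down into the same low range. Of the summed CPM of the members, MT2A held between 88.5% and 89.9% on average in the 5 control groups of run 2, and MT1E between 9.67% and 10.7%.

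MT1A and MT1M had few or no reads. MT1A stayed under 1 CPM in every group mean, and MT1M reached 1 CPM in the mean of thiram at 25 µM alone. MT1A had counts in 3 of 93 libraries on plate 3153-AT and in 8 of 96 libraries carrying the barcode of plate 3284-AT, and its highest count in any library was 16 reads. MT1M had counts in 3 libraries on each of these plates, with a highest count of 63 reads in thiram at 25 µM, replicate 3. Neither had any read in the 15 metal plate controls.

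**Figure D1:**
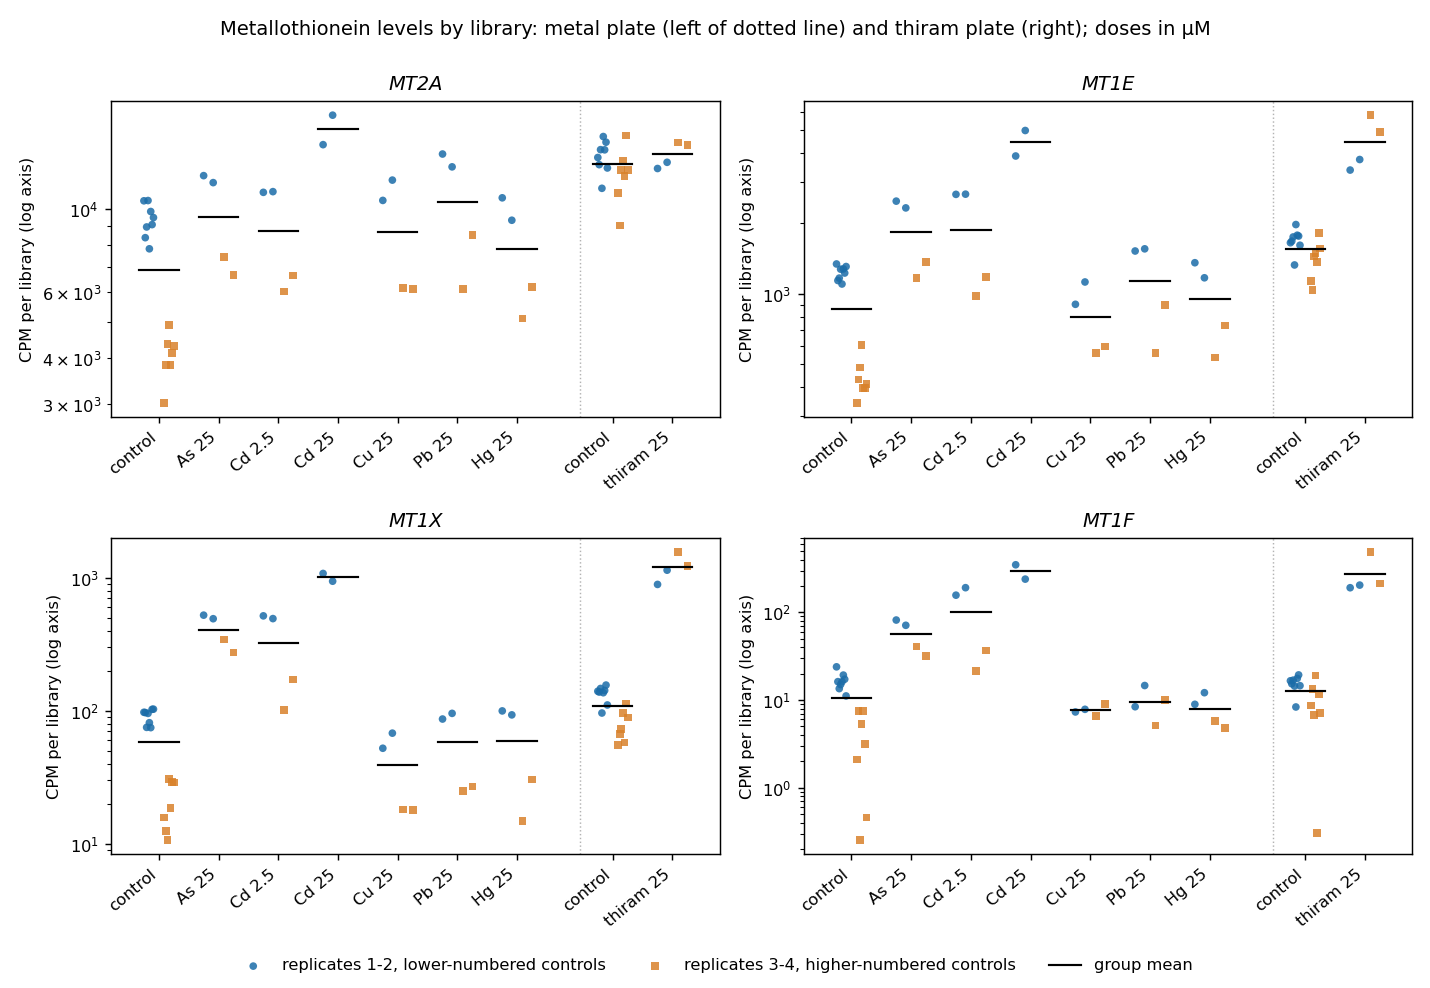
CPM of MT2A, MT1E, MT1X and MT1F in each library (log axis) for the controls, arsenic, copper, lead and mercury at 25 µM, cadmium at 2.5 and 25 µM, and thiram at 25 µM with its own controls. Circles are replicates 1-2 and lower-numbered controls, squares replicates 3-4 and higher-numbered controls, and bars are group means. MT1X of arsenic, cadmium and thiram lies above every control of the same set, while MT2A of thiram lies within its controls.

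Cadmium raised MT1X, MT1F, MT1E and MT2A at 25 µM, with MT1F the most and MT2A the least. Compared with the 15 controls, 4 of 6 tested members were called higher and none lower (edgeR quasi-likelihood test, adjusted p under 0.05), where 5.67% of all genes tested were called higher. MT1F, a form little expressed in untreated cells, stood at 349 and 239.5 CPM in the 2 libraries, against a lowest value of 0.255, a median of 11.1 and a highest of 23.9 CPM in the controls. Both cadmium libraries were far above every control. The log2 fold change of MT1F was 4.44 ± 0.58 (SE, adjusted p = 2.03e-09, edgeR). MT1X stood at 1076 and 941 CPM against 10.7 to 103 CPM in the controls, with a log2 fold change of 3.92 ± 0.59 (SE, adjusted p = 1.31e-07, edgeR). Again no library overlapped with a control. MT1E, the second most abundant form, stood at 3881 and 4987 CPM against 343 to 1343 CPM, a log2 fold change of 2.34 ± 0.37 (SE, adjusted p = 5.46e-07, edgeR). Scaled by total counts alone, the cadmium values were lower: MT1F 194 and 118 CPM, MT1X 598 and 462 CPM and MT1E 2157 and 2450 CPM. The highest controls were then 22.7, 99.1 and 1277 CPM, so the groups did not overlap by this scaling either. Both cadmium libraries belong to replicates 1-2. Against the lower-numbered controls alone the log2 fold changes were smaller and still called, at 4.04 for MT1F, 3.34 for MT1X and 1.71 for MT1E (adjusted p = 2.31e-08, 8.40e-06 and 2.47e-04, edgeR, 10.8% of all genes called).

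MT2A stood at 14904 and 17881 CPM in cadmium at 25 µM and at 3028 to 10554 CPM in the controls, without overlap. Its log2 fold change was 1.25 ± 0.30 (SE, adjusted p = 0.00179, edgeR). This call rests on the scaling and on the choice of controls. The 2 libraries were the shallowest of the plate (totals of 1.43 and 1.45 M), 39.3% and 46.8% of their counts were mitochondrial against 7.87% to 11.4% in the controls, and their TMM scaling factors were 0.556 and 0.491. Scaled by total counts alone, MT2A stood at 8284 and 8786 CPM and its log2 fold change was 0.31 (adjusted p = 0.626, edgeR). Compared with the lower-numbered controls alone it was 0.68 (adjusted p = 0.126, edgeR). Over all genes tested in this comparison the log2 fold change had a median of -1.42. The median over the 6 members tested was 1.80. That value includes MT1A and MT1G, which had no read in either cadmium library, so it is not compared with the median of all genes. MT1G had no read in either cadmium library, where 3 reads would have been 3.77 and 4.20 CPM, above the highest control value of 1.27 CPM. A fall of MT1G, or a rise to less than about these values, was not detectable at this depth.

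At 2.5 µM cadmium, where library depth was that of the other doses, MT1F and MT1X were again called higher, and 0.206% of all genes were. MT1F stood at 157, 191, 21.3 and 36.6 CPM in replicates 1 to 4, and MT1X at 516, 492, 101 and 172 CPM. Replicates 1-2 were higher than replicates 3-4 for both genes. For MT1X each set of replicates was above all controls of its own set, and replicate 3 alone fell below the highest lower-numbered control (103 CPM). The log2 fold changes were 2.86 ± 0.30 for MT1F (SE, adjusted p = 7.25e-12, edgeR) and 2.25 ± 0.40 for MT1X (SE, adjusted p = 1.85e-04, edgeR). MT1E (1.10 ± 0.29, SE, adjusted p = 0.0999, edgeR) did not pass. With the number split as a term in the fit, MT1E (1.15, adjusted p = 1.17e-15) and MT2A (0.42, adjusted p = 0.00451) were called as well, so that 4 members were, and 0.56% of all genes. At 0.25 µM, MT1X stood at 165, 152, 44.8 and 75.1 CPM and was not called (log2 fold change 0.67 ± 0.47, adjusted p = 1, edgeR). With the split as a term its log2 fold change was 0.98 (adjusted p = 3.10e-04, edgeR, 0.0123% of all genes called). No member was called at 0.025 or 0.25 µM of any chemical against all controls.

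The cadmium library with the barcode of the thiram plate held 15639 CPM of MT2A, 1829 CPM of MT1E and 77.1 CPM of MT1X, unscaled, and no read of MT1F. Its MT1X and MT1F were below the values of the other 2 cadmium libraries at 25 µM by either scaling. With it in the fit, the same number of members (4) was called.

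Arsenic raised MT1X, MT1G, MT1F and MT1E at 25 µM, and MT2A by an amount that depended on the fit. Of the 5 members that passed the filter on low counts without the arsenic and cadmium libraries, 4 were called higher and none lower. Over all genes, 23.2% were called higher. MT1X stood at 523, 491, 343 and 274 CPM in replicates 1 to 4 (log2 fold change 2.61 ± 0.39, SE, adjusted p = 2.26e-08, edgeR), and MT1F at 81.8, 71.2, 40.8 and 31.6 CPM (2.04 ± 0.33, SE, adjusted p = 1.78e-07, edgeR). For both genes all 4 libraries exceeded all 15 controls. MT1G stood at 3.32, 6.46, 6.24 and 2.31 CPM against 0 to 1.27 CPM, again without overlap (2.53 ± 0.50, SE, adjusted p = 8.22e-06, edgeR). MT1E stood at 2491, 2330, 1170 and 1371 CPM, with 3 of 4 libraries above the highest control (1.07 ± 0.30, SE, adjusted p = 0.00169, edgeR), and it was not called against the lower-numbered controls alone (0.59, adjusted p = 0.0932). That fit sets replicates 3-4 against controls that were higher for this gene. The controls stood at 1103 to 1343 CPM in the lower-numbered set and at 343 to 604 CPM in the higher-numbered set. MT1E of arsenic lay above the controls of its own set in both.

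MT2A stood at 12309, 11789, 7447 and 6661 CPM in arsenic at 25 µM, overlapping the controls, with a log2 fold change of 0.47 ± 0.24 (SE, adjusted p = 0.113, edgeR). Within each set of numbers it was called: 0.41 with replicates 1-2 and the lower-numbered controls (adjusted p = 1.75e-05, edgeR, 38.1% of all genes called) and 0.89 with replicates 3-4 and the higher-numbered ones (adjusted p = 1.78e-09, edgeR, 32.6% of all genes called). MT1A passed the filter through the arsenic libraries alone, so its call is no support. It was made on 7 and 16 reads in 2 of 4 libraries against 0 in all controls, and was lost without replicate 1 (adjusted p = 0.0508, edgeR). Zinc handling, heat shock and oxidative stress genes of the same cells are given further on.

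Thiram, a dithiocarbamate fungicide, left MT2A within its controls while MT1X, MT1F, MT1G and MT1E rose. Of 5 tested members 4 were called higher and none lower, where 13.7% of all genes were called higher. MT1X stood at 890, 1139, 1554 and 1232 CPM against a lowest value of 54.9, a median of 110.3 and a highest of 156 CPM in the 15 controls (log2 fold change 3.37 ± 0.15, SE, adjusted p = 4.44e-40, edgeR). MT1F stood at 191, 205, 485 and 213 CPM against 0.303 to 19.3 CPM (4.26 ± 0.19, SE, adjusted p = 1.30e-38, edgeR). No thiram library of either gene came near a control. MT1G, close to 0 in the controls (0 to 3.89 CPM), stood at 9.13, 11.95, 13.6 and 38.5 CPM (4.91 ± 0.43, SE, adjusted p = 1.10e-20, edgeR). MT1E stood at 3380, 3749, 5798 and 4915 CPM against 1041 to 1978 CPM (1.51 ± 0.12, SE, adjusted p = 1.48e-21, edgeR). MT2A, in contrast, stood at 12863, 13366, 15088 and 14852 CPM against 9047 to 15775 CPM, and its log2 fold change of 0.09 ± 0.14 (SE) did not pass (adjusted p = 0.721, edgeR). In the thiram libraries MT2A held 70.5% ± 3.66 of the members' summed CPM (SD, n = 4), against 88.7% ± 0.67 in the controls (SD, n = 15). Totals of the thiram libraries were 2.46 to 6.29 M.

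MT1B, outside the 7 and named after its values were seen, had no read in any of the 15 controls of either plate. With thiram at 25 µM it held 68.2, 83.98, 243 and 154 CPM, at least 7306-fold higher when 3 reads over the whole control group are taken as its limit. At 2.5 µM thiram it held 0, 0, 1.03 and 0.817 CPM. Cadmium at 2.5 µM gave 2.94, 6.87, 0.243 and 2.34 CPM, at least 165-fold higher by the same limit. Cadmium at 25 µM gave 32.6 and 1.40 CPM, and arsenic at 25 µM gave none. None of its 50-base windows occurred in another of the family genes searched. MT1L, an annotated pseudogene in the cluster, stood at 519 and 510 CPM in cadmium at 25 µM against 7.76 to 56.4 CPM in the controls.

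**Figure D2:**
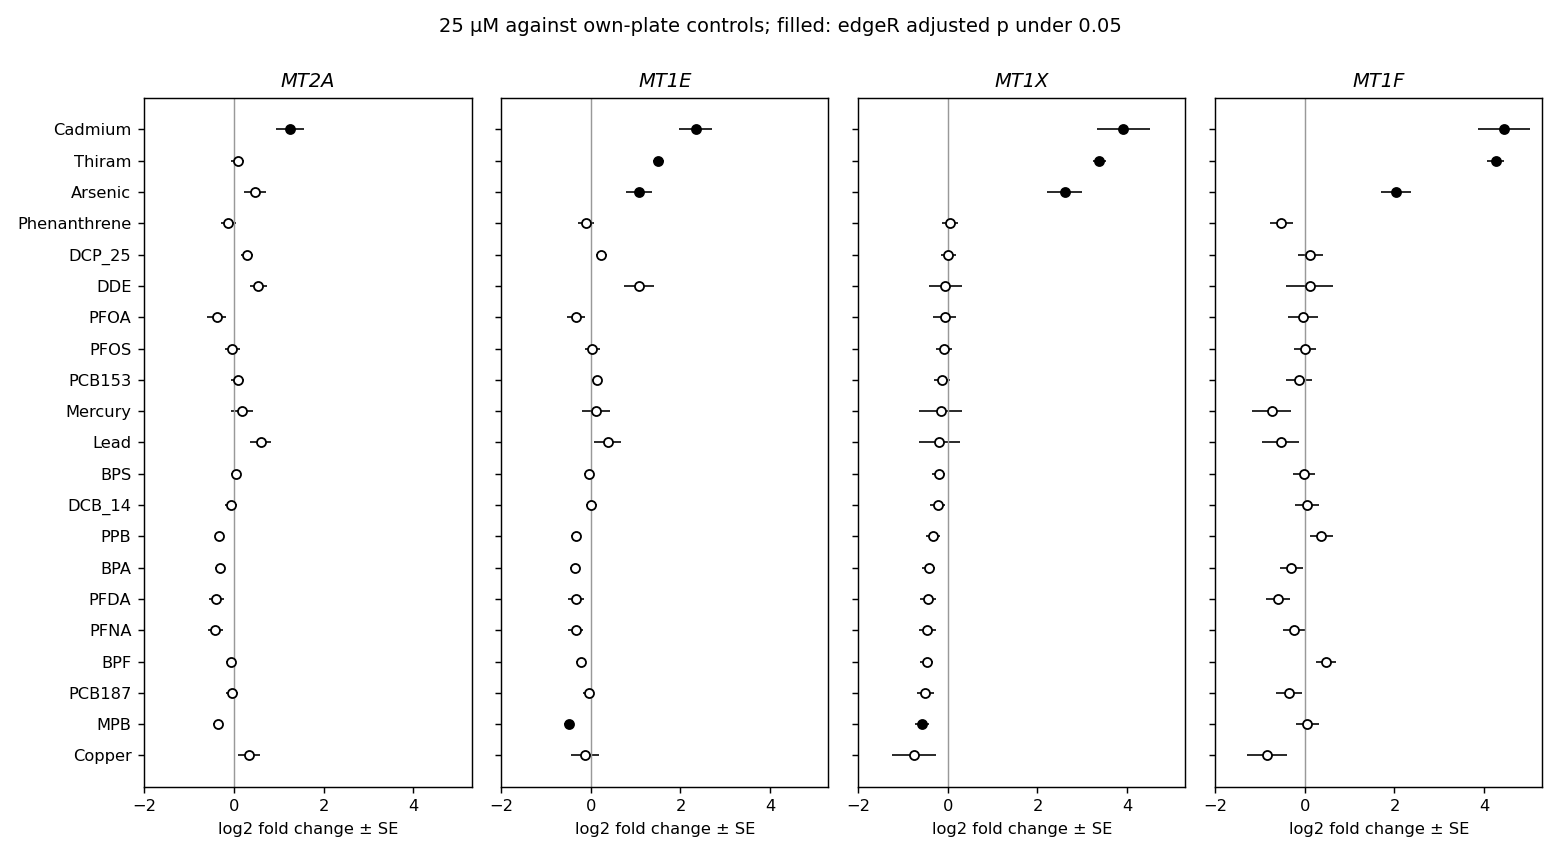
Log2 fold change with its standard error of MT2A, MT1E, MT1X and MT1F at 25 µM against own-plate controls for the 21 chemicals, ordered by MT1X. Filled points passed the edgeR test at an adjusted p under 0.05. Cadmium, thiram and arsenic stand apart for MT1X, between 2.61 and 3.92, and the highest of the other 18 chemicals is 0.04.

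Copper, lead and mercury, of which copper and mercury are also bound by metallothioneins, gave no called member at 25 µM when compared with all 15 controls. Over all genes 5.09% were called with copper, 3.85% with lead and 0.0617% with mercury. With each of these metals, MT2A, MT1E and MT1X of replicates 1-2 were above those of replicates 3-4. MT1X stood at 52.2, 67.8, 18.02 and 17.97 CPM with copper, at 86.5, 95.4, 24.9 and 26.9 CPM with lead and at 99.6, 93.0, 14.8 and 30.3 CPM with mercury. The lower-numbered controls of MT1X lay between 74.5 and 103 CPM and the higher-numbered ones between 10.7 and 30.7 CPM. For MT1X the 2 sets differed more from each other than these metals differed from the controls of their own set.

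In replicates 1-2 copper moved members in opposite directions. It had higher MT2A (log2 fold change 0.27, adjusted p = 0.0147, edgeR) and lower MT1E (-0.28, adjusted p = 0.0424), MT1X (-0.61, adjusted p = 6.57e-04) and MT1F (-1.11, adjusted p = 9.00e-04), where 6.08% of all genes were called higher and 4.88% lower. In replicates 3-4 MT2A alone was called (0.60, adjusted p = 5.81e-04, edgeR, 1.8% of all genes called). There MT1E and MT1F lay on the other side of their controls, at 0.41 (adjusted p = 0.272) and 1.002 (adjusted p = 0.563, edgeR), and MT1X was at -0.11 (adjusted p = 1). With the split as a term, MT2A was called higher (0.40, adjusted p = 7.40e-04) and MT1X lower (-0.57, adjusted p = 0.0177, edgeR, 7.57% of all genes called). Lead had higher MT2A and MT1E in both sets: MT2A by 0.53 and 0.85 (adjusted p = 5.09e-07 and 2.45e-07, edgeR) and MT1E by 0.32 and 0.73 (adjusted p = 0.0153 and 0.00239, edgeR). Over all genes 6.65% and 3.51% were called with lead in these sets. Mercury had no called member in either set or with the split as a term. Its 2 calls, MT2A (1.03, adjusted p = 0.0118) and MT1E (1.195, adjusted p = 0.0410, edgeR), arose against the higher-numbered controls alone, where replicates 1-2 are set against controls that were lower for these genes, and 0.614% of all genes were called. No difference of response between the sets was called for copper, lead or mercury (edgeR interaction, with 0.303% of the gene tests of the 3 metals called). A p that misses the threshold does not show that the responses were alike.

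**Figure D3:**
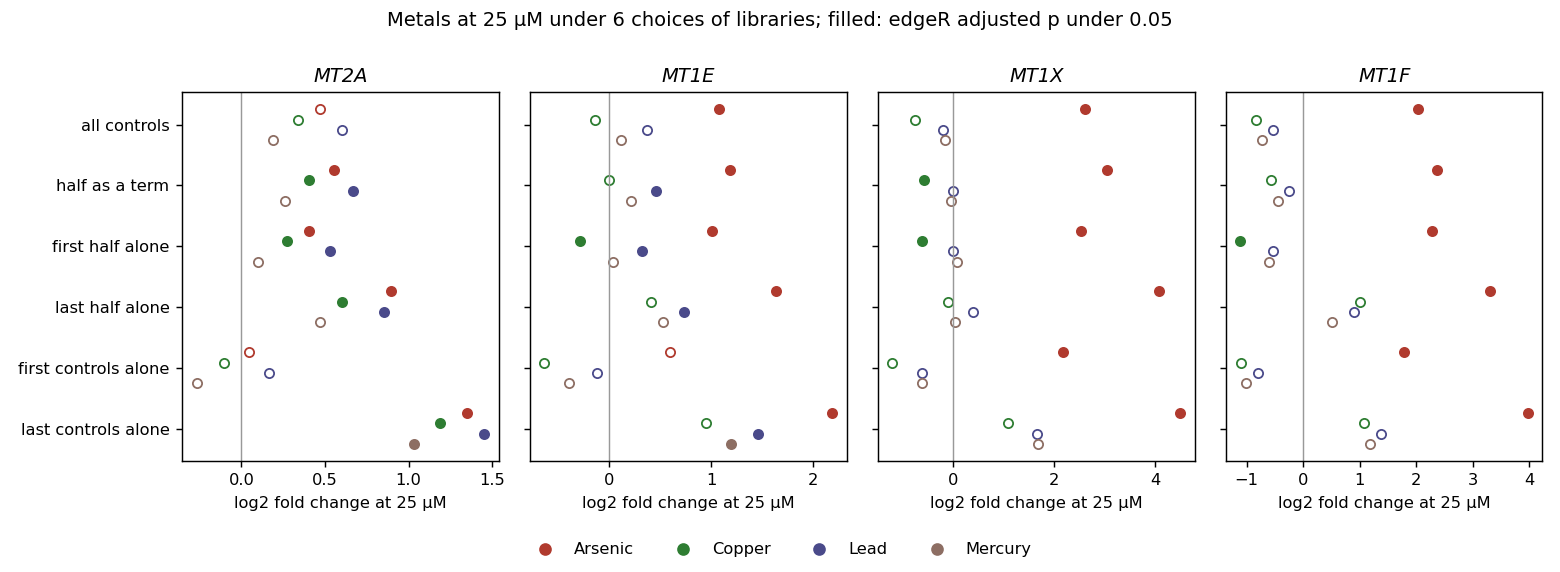
Log2 fold changes of 4 members with arsenic, copper, lead and mercury at 25 µM, for 6 choices of libraries from all controls to the higher-numbered controls alone (last). Filled points passed the edgeR test. Arsenic lies at 1.78 or above for MT1X and MT1F under all 6 choices, whereas lead and mercury lie on either side of 0 for MT1X, depending on the controls.

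The split ran through the whole metal plate. In all 19 dosed groups with both sets, both libraries of replicates 1-2 exceeded both of replicates 3-4 for MT2A, MT1E and MT1X, by a median ratio of means of 1.71, 1.91 and 2.97. MT1F did so in 16 of 19 groups. In the water controls MT2A stood at 7833 to 10554 CPM in the 8 lower-numbered wells and at 3028 to 4883 CPM in the 7 higher-numbered ones, and MT1X at 74.5 to 103 against 10.7 to 30.7 CPM. Neither gene overlapped. The difference between the control sets (last minus first) was -1.21 ± 0.07 on the log2 scale for MT2A, -1.50 ± 0.10 for MT1E, -2.22 ± 0.19 for MT1X and -2.09 ± 0.37 for MT1F (SE, adjusted p = 5.19e-29, 1.62e-25, 2.43e-18 and 4.82e-06, edgeR). These 4 of 6 tested members were called lower, and 5.25% of all genes were. The mitochondrial share of counts was 10.4% to 11.4% in the lower-numbered controls and 7.87% to 9.10% in the higher-numbered ones. Depth differed between the control sets and not between the dosed sets. The part of depth or RNA quality in the split was not tested.

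On the other plates the control sets differed less. On 3240-AT, MT2A, MT1E and MT1X of the DMSO controls were lower in the higher-numbered wells by -0.55 ± 0.09, -0.59 ± 0.10 and -0.55 ± 0.14 (SE, 3 members lower, 0.395% of all genes lower, edgeR). On 3284-AT the same 3 were lower by -0.15 ± 0.04, -0.27 ± 0.05 and -0.77 ± 0.12 (SE, 2.15% of all genes lower, edgeR). On 3206-AT, MT2A and MT1E went the other way, by 0.30 ± 0.03 and 0.15 ± 0.04 (SE, 1.42% of all genes higher, edgeR). Water and DMSO controls of plate 3240-AT differed in MT1X alone among the 5 members tested. MT1X stood at 30.7, 43.1, 35.8 and 28.3 CPM in the 4 water wells and at 57.5 to 132 CPM in the 12 DMSO wells, without overlap. The log2 difference (water minus DMSO) was -1.25 ± 0.21 (SE, adjusted p = 2.14e-05, edgeR, with 1.95% of all genes lower), and that of MT2A was -0.41 ± 0.17 (SE, adjusted p = 0.174).

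For thiram and arsenic, the response relative to the controls of the same set differed between the sets, and for thiram much of this was shared by other groups of the plate. For thiram, the log2 response of replicates 3-4 exceeded that of replicates 1-2 by 1.56 ± 0.36 for MT1F, 1.23 ± 0.18 for MT1X, 0.84 ± 0.11 for MT1E and 0.33 ± 0.08 for MT2A (SE, adjusted p = 0.00351, 3.67e-09, 1.09e-11 and 0.00821, edgeR interaction), where 0.430% of all genes differed in this direction. MT1X was 7.62-fold its controls in replicates 1-2 and 17.7-fold in replicates 3-4. Both the thiram level and the control level differed: MT1X of thiram averaged 1014 and 1393 CPM, and that of the controls 133 and 78.5 CPM. In the other 19 dosed groups of the plate, which share these controls, the same difference between the sets (log2 of the ratio of folds) was above 0 in 19 for MT2A and MT1E, 18 for MT1X and 14 for MT1F, with medians of 0.59, 0.50, 0.41 and 0.50. For MT2A 17 of these groups had a difference at least as high as that of thiram, for MT1X 2, and for MT1E and MT1F 1 each. On this plate the interaction was tested for thiram alone. For arsenic MT1X alone differed (1.49 ± 0.27, SE, adjusted p = 2.50e-04, edgeR interaction, 0.560% of all genes). Its levels were 507 CPM against 90.6 in the controls of replicates 1-2, and 308 against 20.9 CPM in those of replicates 3-4. In the other 18 dosed groups of the metal plate with both sets the difference for MT1X lay between 0.02 and 1.09, with a median of 0.50, and arsenic stood at 1.40.

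**Figure D4:**
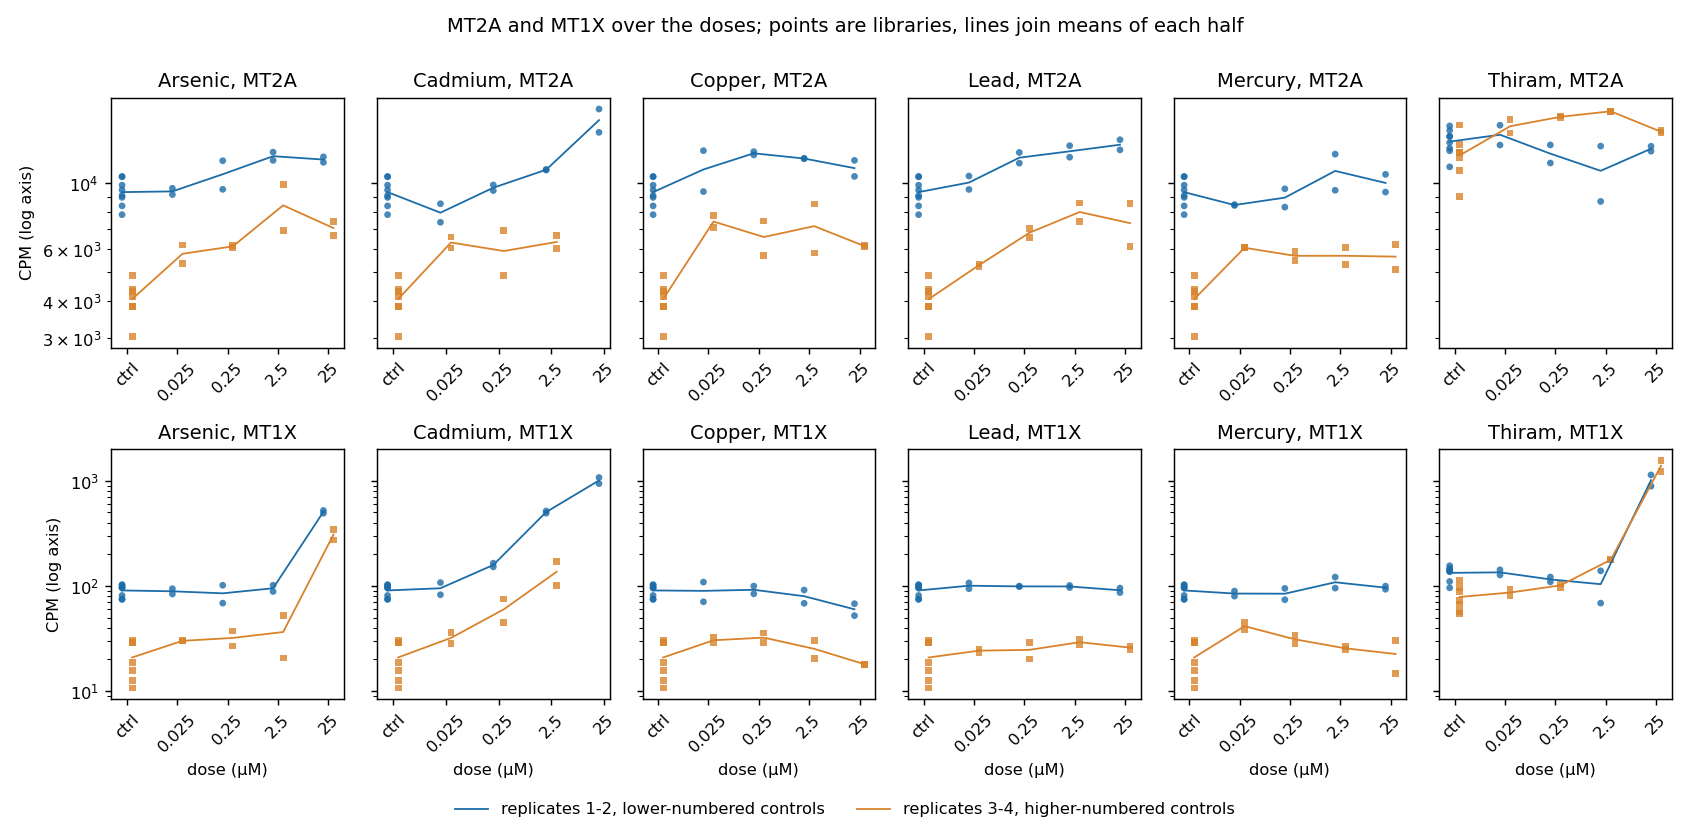
CPM of MT2A (top) and MT1X (bottom) in each library over the controls and 4 doses (log axis) for the 5 metals and thiram, with lines through the mean of each set. MT1X of cadmium increased from 0.25 µM on in both sets, while MT1X of arsenic and thiram was high at 25 µM only. Blue and orange points stay apart over the doses on the metal plate.

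Dose trends within a chemical do not use the controls and are less exposed to the choice among them. Per 10-fold step in dose, cadmium raised MT1F by 1.76 ± 0.22, MT1X by 1.36 ± 0.23, MT1E by 0.75 ± 0.15 and MT2A by 0.38 ± 0.12 on the log2 scale (SE, adjusted p = 4.43e-10, 4.80e-06, 1.16e-04 and 0.0237, edgeR). These are 4 of 6 tested members, and 4.18% of all genes were called rising. For cadmium the 25 µM group holds replicates 1-2 alone, the higher set of this plate, while the lower doses hold both sets. Dose and set are thus mixed in these slopes. With the replicate number as a block 4 members were called as well. The share of all genes called in that fit is not given, so this count does not set the members apart from other genes. Scaled by total counts alone, MT2A averaged 8535 CPM at 25 µM and 8863 CPM at 2.5 µM, so its slope also rests on the scaling. Thiram raised MT1G by 1.66 ± 0.18, MT1F by 1.42 ± 0.09, MT1X by 1.07 ± 0.07 and MT1E by 0.41 ± 0.05 (SE, edgeR, 4 of 5 members tested, 9.24% of all genes rising). Arsenic raised MT1G by 0.88 ± 0.23, MT1X by 0.86 ± 0.18 and MT1F by 0.81 ± 0.15 (SE, edgeR, 3 of 6 members, 14.2% of all genes rising). With 25 µM the only dose at which arsenic and thiram stood above the rest, these slopes mostly carry that dose.

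For the other 18 chemicals no member was called for a trend (edgeR, 0.183% of their gene tests). Same-numbered libraries of copper, lead and mercury deviated together over the doses, so the blocked fit is given for them: with the replicate number as a block, copper lowered MT1E by -0.17 and MT1X by -0.21 per 10-fold step (adjusted p = 8.79e-05 and 0.00475, edgeR, 4.97% of all genes called), and lead raised MT2A by 0.15 (adjusted p = 7.01e-06, edgeR, 3.55% of all genes called). Copper was thus the metal with falling MT1X over the doses, and lead one with rising MT2A, both by small amounts.

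Metals were also compared with one another at 25 µM, in 10 pairs. Of 60 member tests 20 were called, and 13.9% of all gene tests of these pairs. Cadmium exceeded copper, lead and mercury in MT1F, MT1X and MT1E. The MT1X differences were 4.67 ± 0.73 from copper, 4.10 ± 0.71 from lead and 4.08 ± 0.72 from mercury on the log2 scale (SE, edgeR). Arsenic exceeded all 3 in MT1F, MT1X and MT1G, and copper also in MT1E. In this fit, which sets cadmium of replicates 1-2 against arsenic of both sets, cadmium exceeded arsenic in MT1F alone (arsenic minus cadmium -2.40 ± 0.57 on the log2 scale, SE, adjusted p = 0.00182, edgeR). For MT1X that pair differed by -1.31 ± 0.69 (SE, adjusted p = 0.321), which did not pass. No member was called between copper, lead and mercury. With the split as a term, 27 of 60 member tests were called (14.8% of all gene tests), among them MT2A above mercury with lead (0.40, adjusted p = 0.0363, edgeR). The MT1X differences of cadmium from copper, lead and mercury were then 4.11, 3.53 and 3.57. MT1E was then also called lower with arsenic than with cadmium (-0.82, adjusted p = 6.60e-04, edgeR). With the replicate number as a block 31 were called (14.4% of all gene tests), 3 of them between copper, lead and mercury: MT1E and MT1X lower with copper than with lead (-0.46 and -0.57, adjusted p = 0.00261 and 0.0491) and MT2A higher with lead than with mercury (0.41, adjusted p = 2.00e-04, edgeR). On the TMM scaling, MT1E and MT2A were also lower with arsenic than with cadmium by that block (-0.84 and -0.44, adjusted p = 5.61e-07 and 7.57e-04, edgeR).

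Over all 84 comparisons of a dosed group with its controls, MT1X followed the order cadmium 25 µM (3.92), thiram 25 µM (3.37), arsenic 25 µM (2.61), cadmium 2.5 µM (2.25) and cadmium 0.25 µM (0.67). The next was thiram at 2.5 µM with 0.25, not called. Scaled by total counts alone, thiram (3.34) came before cadmium (3.001) at 25 µM. The pair of cadmium and arsenic at 25 µM did not pass the test for MT1X, and thiram, on another plate, was not tested against them. The lowest was copper at 25 µM, at -0.76 ± 0.49 (SE, not called). MT2A ranged from -0.47 to 1.25 over the same comparisons, and cadmium at 25 µM was its single call.

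Among the 15 chemicals outside the metals and thiram, 2 of 74 member tests at 25 µM were called, MT1E and MT1X lower with MPB (0.268% of their gene tests were called lower). MT1E stood at 889, 941, 1351 and 1082 CPM with MPB against 1176 to 1802 CPM in the controls, overlapping through replicate 3 (log2 fold change -0.48 ± 0.11, SE, adjusted p = 0.00658, edgeR). MT1X stood at 52.4, 61.4, 56.9 and 46.5 CPM against 51.9 to 107 CPM, overlapping as well (-0.57 ± 0.15, SE, adjusted p = 0.0320, edgeR). Neither was called without replicate 1 (adjusted p = 0.260 and 0.323), and MT1X was not called without replicate 4 (adjusted p = 0.103). BPA at 2.5 µM lowered MT1E by -0.46 ± 0.11 (SE, adjusted p = 0.0156, edgeR), at 1003, 1068, 1247 and 1002 CPM. This and the 2 cadmium calls were the 3 calls among 327 member tests at the 3 lower doses, where 0.166% of gene tests were called.

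DDE at 25 µM gave MT1E values of 332, 438, 531 and 524 CPM against 51.7 to 356 CPM in its 8 controls. Its log2 fold change was 1.07 ± 0.34 (SE, adjusted p = 0.0511, edgeR) and it did not pass, in a comparison where 7.77% of all genes were called. MT2A stood at 5505, 6022, 6987 and 7527 CPM against 2573 to 6722 CPM (0.55 ± 0.20, SE, adjusted p = 0.0742). At 0.25 µM the MT1E log2 fold change was 1.12 ± 0.34 (SE, adjusted p = 0.0623, edgeR). The controls share replicate numbers with the 2 lowest doses. With the number as a block, a fit chosen after the data were seen, MT1E and MT2A were called higher at 0.025 µM (1.29 and 0.54, adjusted p = 9.90e-04 and 0.0156) and at 0.25 µM (1.18 and 0.64, adjusted p = 0.00192 and 0.00840, edgeR), where 9.53% and 5.01% of all genes were called.

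The ratio of a member to MT2A within a library does not depend on library scaling apart from the 1 CPM added, which weighs most for members at low levels. It was compared for 4 members and 6 chemicals at 25 µM as log2((CPM + 1)/(MT2A CPM + 1)). Of 24 two-sided exact permutation tests, 15 passed after Benjamini-Hochberg adjustment. Among them is MT1G of cadmium (0.262-fold, exact p = 0.0147, adjusted p = 0.0235). Both cadmium libraries had 0 reads of MT1G, so that ratio is set by the pseudocount and shows no fall of MT1G. With thiram MT1F gained 19.96-fold relative to MT2A, MT1X 10.7-fold, MT1G 10.5-fold and MT1E 2.64-fold (exact p = 5.16e-04 for each, the smallest that 4 against 15 libraries can give, adjusted p = 0.00177). With arsenic MT1X gained 5.95-fold, MT1F 4.30-fold, MT1G 2.45-fold and MT1E 1.58-fold. The same p applied to MT1X, MT1F and MT1E of arsenic, and MT1G had an exact p of 0.00155 (adjusted p = 0.00413). With cadmium MT1F gained 13.2-fold, MT1X 8.56-fold and MT1E 2.24-fold (exact p = 0.0147, the smallest that 2 against 15 can give, adjusted p = 0.0235). The scaling factors of those libraries enter these gains only through the 1 CPM added. Both cadmium libraries are of replicates 1-2. By exact permutation within the sets the gains were smaller, at 9.61-, 6.31- and 2.04-fold (adjusted p = 0.0314 for each). With each of the 3 agents MT1E, MT1X and MT1F thus gained on MT2A.

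Copper lowered MT1E relative to MT2A to 0.766-fold (exact p = 0.00155, adjusted p = 0.00413). The log2 ratios were -3.55 to -3.35 with copper and -3.38 to -2.83 in the 15 controls, so the groups overlapped at the edge. Under permutation within the sets the ratio was 0.771-fold (adjusted p = 0.00444). MT1X fell to 0.579-fold by that test (adjusted p = 0.00539), and to 0.567-fold over all controls, where it did not pass (exact p = 0.0346, adjusted p = 0.0519). With lead, MT1E was 0.886-fold (adjusted p = 0.0194) and MT1X 0.713-fold (adjusted p = 0.0403) relative to MT2A by the exact permutation within the sets, while neither passed over all controls. With mercury no ratio passed, and the MT1E ratio was 0.987-fold (exact p = 0.826). Ratios of MT1G rest on values near the pseudocount of 1 CPM. With 5 CPM added instead, the gain of MT1G was 1.16-fold with arsenic and did not pass (exact p = 0.513, adjusted p = 0.535), and 3.51-fold with thiram (adjusted p = 0.00177). The MT1G ratios of copper and lead did not pass either with 5 CPM (adjusted p = 0.1499 and 0.0677, exact permutation). The gains of MT1F were smaller with 5 CPM and still passed, at 2.87-fold with arsenic, 8.27-fold with cadmium and 14.5-fold with thiram (adjusted p = 0.00177, 0.0276 and 0.00177, exact permutation).

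**Figure D5:**
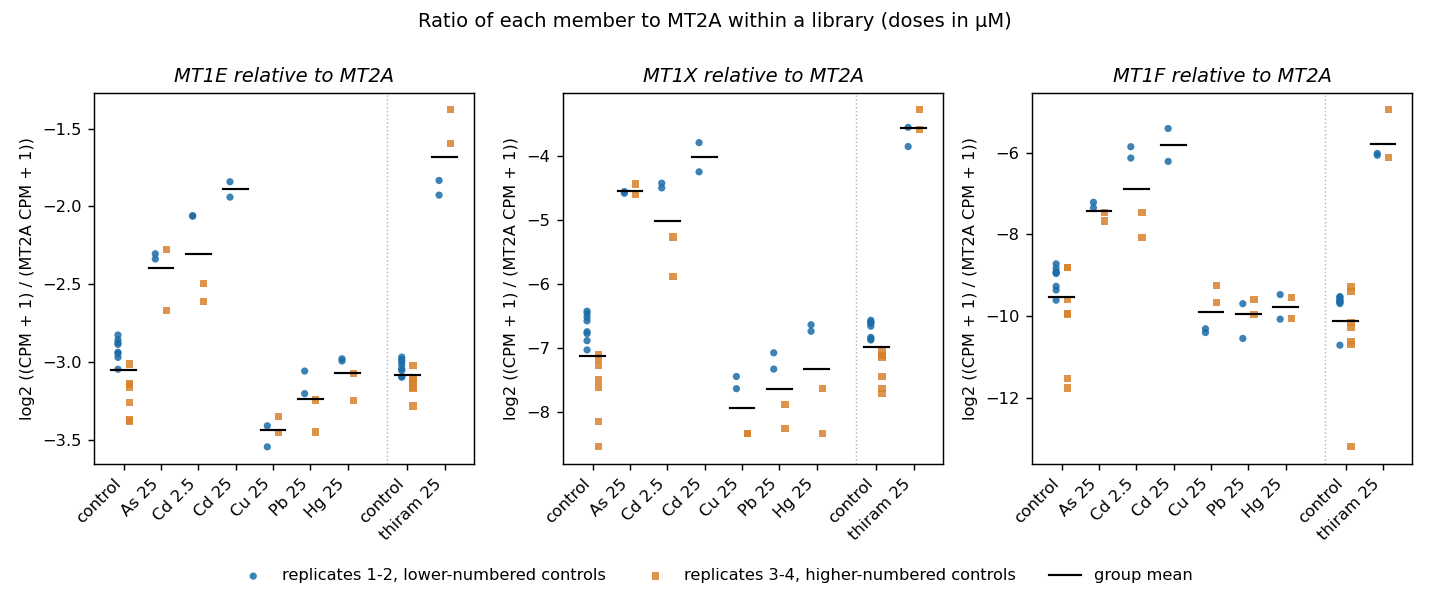
Log2 ratio of MT1E, MT1X and MT1F to MT2A in each library, with 1 CPM added to both values, for the groups of the metal plate (left of the dotted line) and the thiram plate. Circles are replicates 1-2 and lower-numbered controls, squares the higher-numbered libraries, and bars group means. MT1E of copper lies at the lower edge of its controls, and arsenic, cadmium and thiram lie above theirs in all 3 panels.

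Zinc transport genes moved with the members in part. SLC30A1, the zinc exporter of the plasma membrane and a known MTF1 target, averaged 981 ± 159 CPM with thiram (SD, n = 4) and 31.3 ± 10.1 CPM in its controls (SD, n = 15), a log2 fold change of 5.13 ± 0.12 (SE, adjusted p = 1.30e-64, edgeR). It was also called higher with arsenic at 25 µM (2.54 ± 0.15), cadmium at 25 µM (1.27 ± 0.44), cadmium at 2.5 µM (0.97 ± 0.16) and lead at 25 µM (0.59 ± 0.16, SE, edgeR), and not with copper (0.13 ± 0.17) or mercury (-0.08 ± 0.18). Of the 13 zinc genes listed, 4 were called higher and 5 lower with thiram, where 13.7% of all genes were called higher and 12.2% lower. With arsenic 5 were higher and 6 lower (23.2% and 18.2% of all genes), with lead 2 higher (2.15% of all genes), with cadmium 1 higher at either dose (5.67% and 0.206% of all genes) and with copper or mercury none. SLC39A8, a zinc importer, was lower with thiram (-2.12 ± 0.27) and arsenic (-2.05 ± 0.48, SE, edgeR), but it also differed between the control sets of the metal plate (-1.92 ± 0.13, last minus first). SLC30A1 was 0.46 ± 0.15 higher in the higher-numbered controls (SE, adjusted p = 0.0305), opposite to the members.

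Oxidative stress genes followed another pattern over the metals. HMOX1, heme oxygenase, rose by 9.99 ± 0.27 with cadmium, 8.82 ± 0.24 with arsenic and 5.57 ± 0.24 with thiram at 25 µM (SE, edgeR), and also by 2.60 ± 0.32 with copper and 2.19 ± 0.33 with lead, where no member was called against all controls. All 8 genes of this list were called higher with copper and with lead, and 2 of 8 with mercury. With arsenic and with thiram 7 were higher and 1 lower, and with cadmium 5 were higher and 1 lower. All 6 heat shock genes were called higher with cadmium, arsenic and thiram, none with copper or mercury and 2 with lead. Over all genes 5.67% were higher with cadmium, 23.2% with arsenic and 13.7% with thiram. In either direction 5.09% were called with copper, 3.85% with lead and 0.0617% with mercury. Between the control sets of the metal plate (last minus first) 3 oxidative stress genes were higher. Of the heat shock genes 3 were higher and 1 lower there. The share of all genes called higher there is not given, so these counts do not set the lists apart from other genes. Among 8 copper handling genes none was called with copper. Of 6 glucocorticoid response genes 3 were called lower with arsenic, with cadmium and with copper, 1 with lead and none with mercury. With thiram 3 were lower and 1 higher. Of 24295 genes tested, 4416 were called lower with arsenic, 1306 with cadmium, 536 with copper and 413 with lead. Between the control sets of the metal plate 3 of the 6 were lower (last minus first, 5.25% of all genes lower). FKBP5 was lower with arsenic (-2.20 ± 0.14), cadmium (-1.98 ± 0.25), thiram (-1.68 ± 0.17), copper (-0.50 ± 0.13) and lead (-0.48 ± 0.13, SE, edgeR).

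The genes with the pattern most like MT2A over all 84 dosed groups were sought among 13839 genes tested on all plates, by Pearson's r of the mean log2(CPM + 1) less that of the controls. They were MT2P1 (r = 0.944), an MT2A pseudogene that may share its reads, and the ribosomal protein genes RPL23 (0.875), RPL31 (0.860), RPL37 (0.860) and RPS29 (0.859). Among the members MT1E had r = 0.864, MT1X 0.537 and MT1F 0.416. Without arsenic, cadmium and thiram at 25 µM, r was 0.944 for MT2P1, 0.929 for RPL22L1 and 0.882 for MT1E. For MT1X, looked at after its values were seen, the 5 highest outside the members were the heat shock and stress genes HSPA6 (0.932), HSPA1A (0.918), ZFAND2A (0.909), HSPA1B (0.902) and HMOX1 (0.896), and MT1F had 0.932. Without the same 3 groups the values were lower: ZFAND2A 0.665, HSPA6 0.656, HSPA1A 0.606 and HMOX1 0.6004, with 0.725 for MT1F and 0.634 for MT1E. These groups share control libraries, plates and depth, so the values describe the table and carry no p.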

How the data were processed

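Gene counts of 402 libraries were used. The deposited files, 1 for each library, hold raw counts of reads by gene symbol (whole numbers, with totals that differ between libraries). Per the submitters' processing notes, FastQC, MultiQC, STAR and featureCounts were used with GRCh38. The sources used here do not give their versions, the annotation, the strand setting or the choice of symbols. No molecular identifiers are mentioned, so counts are reads.

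Each plate, taken from the barcode in the label, was fitted alone with edgeR 4.0.16 (R 4.3.3): genes filtered by filterByExpr (minimum count 10, minimum total 15), TMM scaling, the quasi-likelihood F-test and Benjamini-Hochberg adjustment over all genes of a comparison, called under 0.05. The standard error is the log2 fold change divided by the root of F. CPM is on the TMM-scaled library size unless named unscaled. The fit was also run on simulated data without a difference between the number sets, so that run does not bear on the split. Ratios to MT2A were tested by two-sided exact permutation (scipy). No library was identical to another. The members and lists were chosen with earlier results of these data known, and all 7 members are named, with a member under 1 CPM in every group mean of a plate called near 0. Alternatives were another scaling, DESeq2 1.42.0, no filter, left-out replicates, the control sets and a replicate block.

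Same-numbered libraries of copper, lead and mercury deviated together over the doses (lowest r of 24 pairs 0.154, 0.354 and 0.320), as did those of PFOA (0.217), and the pairing comes from these data, not from the labels. Those of arsenic, cadmium and thiram did not in every pair.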

Additional observations from a re-analysis of the deposited data

Results flagged for a closer look

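In 40 sets of 4 to 10 libraries examined for a library far from the rest, 2 stood out, which is what chance gives for about 1 in 20. The MT1F value of replicate 3 of thiram at 25 µM was 485 CPM, against 191 to 213 CPM in the others. MT1E was 1425 CPM in 1 water control of plate 3240-AT, against 891 to 958 CPM in the other 3.

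The response differed between replicates 3-4 and replicates 1-2 by the edgeR interaction test in 5 cases. For arsenic the log2 difference was 1.49 for MT1X. For thiram it was 0.33 for MT2A, 0.84 for MT1E, 1.56 for MT1F and 1.23 for MT1X. MT1X of the controls was also lower in the higher-numbered set on both plates, and the part of depth in these differences was not tested. On the thiram plate the other 19 dosed groups, which share the controls, differed in the same direction in 19 for MT2A and MT1E, 18 for MT1X and 14 for MT1F, and in 17 of them by at least as much as thiram for MT2A. The interaction was not tested for those groups.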

How the results depend on the processing

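No result turned its called direction under the alternatives run. Counts of called members with arsenic (4 to 5, MT1A included), cadmium (3 to 4) and thiram (4 to 5) at 25 µM held to these ranges when each replicate number was left out, and stayed within 1.5 times under the other settings. Without replicate 1 or 2, cadmium has 1 library, which is assumed to vary like the other groups. MT2A of cadmium was not called without replicate 2 (1.11, adjusted p = 0.124, edgeR).

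The choice among controls and number sets moved the weaker results. Copper went from 0 calls to 4 in replicates 1-2 with their controls, 1 in replicates 3-4 with theirs, 1 against the higher-numbered controls, 2 with the split as a term and 1 with the 2 groups fitted alone. Lead went from 0 to 2 in each of these settings but the last, and to 1 without the filter. Mercury went from 0 to 2 against the higher-numbered controls, and PFOA from 0 to 1 in replicates 1-2 and to 1 without the filter. Cadmium at 2.5 µM went from 2 to 4 in replicates 3-4 and to 4 with the split as a term. The other 14 chemicals of run 2 at 25 µM, MPB included, went from 2 to 10 in replicates 1-2 and 9 in replicates 3-4, and the lower doses of run 2, cadmium at 2.5 µM left out, from 1 to 16 with the split as a term. Over all genes, copper had 6.08% called higher and 4.88% lower in replicates 1-2, 1.8% called in replicates 3-4 and 7.57% with the split as a term. Lead had 6.65% called in replicates 1-2 and 3.51% in replicates 3-4. Mercury had 0.614% against the higher-numbered controls, and cadmium at 2.5 µM 0.56% with the split as a term. Shares for the remaining settings are not given, so those counts do not set the members apart from other genes. The causes of these shifts were not tested.

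Without the filter on low counts, calls went from 0 to 16 for the 14 chemicals other than the metals, thiram and MPB at 25 µM, from 1 to 28 at the lower doses but cadmium at 2.5 µM, from 0 to 12 for trends of the other 18 chemicals, from 1 to 10 for differences of response between sets with 4 metals and from 1 to 3 between water and DMSO. DESeq2 gave 2 in place of 4 differences of response with thiram, 1 in place of 2 for the controls of 3206-AT and 1 in place of 3 for those of 3284-AT. Leaving out replicates gave 0 to 3 calls for MPB, 0 to 3 for the same 14 chemicals, 1 to 6 at the same lower doses and 9 to 15 ratio tests.

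With the replicate number as a block, arsenic trends went from 3 to 5 calls, trends of the other 17 chemicals of run 2 from 0 to 3 and metal pairs from 20 to 31, while cadmium and thiram trends kept 4 calls each. Shares of all genes called are not given for the blocked arsenic, cadmium and thiram trends. With the split as a term, arsenic trends had 5 and the other 17 chemicals 4. For the 5 metals at 25 µM same-numbered libraries correlated by -0.0107 to 0.507, with 19 of 32 pairs over 0.1 and a median of 0.161, against -0.0541 for other numbers. The 4 DDE doses share no replicate numbers with one another, so no block was possible for their trend. The controls share numbers with DDE at 0.025 and 0.25 µM, where a block chosen after seeing the data took the calls from 0 to 4, and 6 of 8 pairs correlated by over 0.1 (lowest -0.209). Depth limited MT1A, MT1M and MT1G, whose calls rest on few reads.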
